A study of Homo sapiens with 6 samples.

Results

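Transcripts of 10 genes of the Toll-like receptor system were followed through 3 cultured human lung cancer lines: the receptors TLR1 to TLR6, the TLR4 partners LY96 and CD14, and the adaptors MYD88 and TICAM1. They were taken by symbol from tables that list 26485 symbols, and were chosen by earlier results of their TPM in these same libraries. TPM counts transcripts scaled by length and to a fixed total per library. The levels of these genes are therefore a description, with no test. Other genes of the pathway were tested singly, and as their lists were also drawn up with earlier results known, the list counts below are likewise a description. TLR5 and CD14 stayed below 1 TPM in all 6 libraries, and the other 8 genes reached 1 TPM in at least 2 libraries. Of these 8, TLR4 was below 1 TPM in both PC9-AMG libraries and TLR2 in both PC9-BrM4 libraries, and the other 6 were at or above 1 TPM everywhere.

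Toll-like receptors are membrane proteins that recognise molecules of microbes and, for some of them, of damaged tissue. TLR4 detects bacterial lipopolysaccharide together with MD-2, the protein made from LY96, after CD14 has handed the lipid over. Signals pass through the adaptor MYD88 at the cell surface or through TICAM1, also called TRIF, inside the cell, and lead to the NF-kB, AP-1 and interferon regulatory factors. In the lung these receptors are known from macrophages and from the airway epithelium.

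The lines were PC9-AMG, PC9-BrM4 and PC9, with 2 libraries each, and all were grown in conventional culture. PC9 comes from a lung adenocarcinoma and carries an activating EGFR mutation. Earlier work describes PC9-BrM4 as selected for metastasis to the brain, which is not in the labels. The sources used here leave the letters AMG unexplained, and PC9-AMG is taken by its name alone as derived from PC9. Whether either derived line is a single clone is not stated. The deposited tables of PC9-AMG carry EMG in their names, and they were assigned to PC9-AMG by the sample records. Nor do the labels say that the 2 libraries of a line came from separate cultures, so a p-value below reflects only how far these libraries scatter, and that scatter may be technical.

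The estimated aligned sequence behind a library was 2.66 to 4.39 gigabases. Log2 values of the 2 libraries of a line correlated at 0.994 to 0.996 across genes, which are not independent replicates. All 10 epithelial markers checked were at 1 TPM or more in every library, as the label of a lung cancer line calls for. By limma 5 were higher and 3 lower in PC9-AMG than in PC9, and 1 was higher and 8 lower in PC9-BrM4 than in PC9. Their summed level was 14834 and 15284 TPM in PC9-AMG, 9922 and 10052 TPM in PC9-BrM4, and 12760.3 and 12846 TPM in PC9. Of 12 markers of macrophages and other myeloid cells, which also carry these receptors, 2 to 5 reached 1 TPM per library and 5 (AIF1, TYROBP, SPI1, CD163 and MARCO) were listed at 0 in all 6. The summed level of the 12 was 61.2 and 61.5 TPM in PC9-AMG, 51.5 and 52.7 TPM in PC9-BrM4, and 67.3 and 66.2 TPM in PC9. Most of that sum was CD68, a lysosomal protein that many cell types make. CSF1R, the receptor for macrophage colony-stimulating factor, averaged 4.03 TPM in PC9-AMG, 0.550 TPM in PC9-BrM4 and 0.627 TPM in PC9, and ITGAM, an integrin chain of myeloid cells, averaged 4.05 TPM in PC9-AMG, 0.505 TPM in PC9-BrM4 and 0.472 TPM in PC9. The part of either marker list in the results below was not tested.

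TLR4, the lipopolysaccharide receptor, had the widest spread between lines among the 10 genes. It lies at chr9:117704175-117717491 on the plus strand of build hg38. Its level was 0.237 and 0.190 TPM in PC9-AMG, 12.4 and 13.4 TPM in PC9-BrM4, and 3.88 and 3.87 TPM in PC9. The 3 lines did not overlap, with PC9-AMG lowest and PC9-BrM4 highest. The means were 0.213 ± 0.0333 TPM in PC9-AMG, 12.9 ± 0.717 TPM in PC9-BrM4 and 3.88 ± 0.0071 TPM in PC9 (SD, n = 2 each, as for every mean given here). PC9-BrM4 thus held 3.32 times the PC9 level, PC9 held 18.2 times the PC9-AMG level, and PC9-BrM4 held 60.5 times the PC9-AMG level. In a bulk library, fewer cells with a transcript and less transcript per cell cannot be told apart.

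On the log2(TPM + 1) scale, which understates differences of low genes, TLR4 differed by -2.01 between PC9-AMG and PC9, by 1.51 between PC9-BrM4 and PC9, and by -3.52 between PC9-AMG and PC9-BrM4 (SE 0.0958 each). With a pseudocount of 0.1 in place of 1 the same differences were -3.67, 1.71 and -5.38, and with FPKM in place of TPM the first was -1.29. Within a library FPKM and TPM differ by a fixed factor, so FPKM with 1 added acts as another pseudocount, not as another measure. Mean read coverage of the gene comes from the same reads as TPM, so its order is no second measurement. As deposited, it was 0.389 and 0.356 in PC9-AMG, 16.3 and 20.9 in the PC9-BrM4 libraries, and 5.53 and 4.32 in PC9. A coverage below 1 means that less than 1 read lay over an average base of TLR4 in PC9-AMG, so the size of that fold rests on few reads. Part of the gene is shared with another gene model: 186 of its 2446 coding windows of 75 bases (7.6%) also occur in the GENCODE model AL160272.2, whose symbol is absent from the tables.

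**Figure D1:**
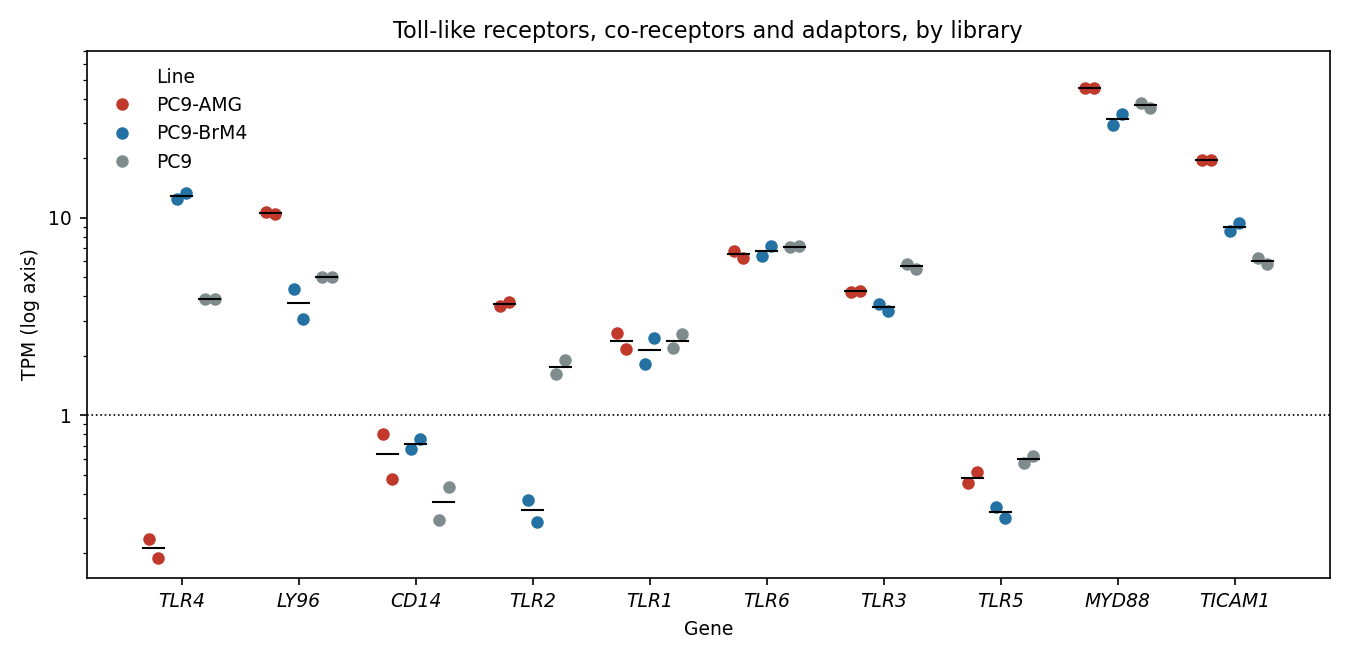
TPM of the 10 genes on a log axis, with a point for each of the 2 libraries of PC9-AMG, PC9-BrM4 and PC9 and a bar at each mean; the dotted line is 1 TPM. TLR4 spans 0.190 to 13.4 TPM between lines, TLR2 has its lowest points in PC9-BrM4, and TLR1 and TLR6 each have similar points in all 3 lines.

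LY96 encodes MD-2, the co-receptor that binds lipopolysaccharide in the TLR4 complex, and lies at chr8:73991329-74029072 on the plus strand. Its level was 10.6 and 10.4 TPM in PC9-AMG, 4.35 and 3.08 TPM in PC9-BrM4, and 5.01 and 5.0 TPM in PC9. PC9-AMG was above both other lines and PC9-BrM4 below PC9, without overlap, so LY96 ordered the lines in the reverse of TLR4. The PC9-AMG mean of 10.5 ± 0.152 TPM was 2.1 times that of PC9 and 2.83 times the 3.72 ± 0.898 TPM of PC9-BrM4. The difference on the log2 scale was 0.94 for PC9-AMG against PC9, -0.36 for PC9-BrM4 against PC9, and 1.302 for PC9-AMG against PC9-BrM4 (SE 0.13 each). The gap between PC9-BrM4 and PC9 depended on single libraries: it was -0.56 without the first PC9-BrM4 library and -0.17 without the second.

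Because TPM is per length, the receptor and its co-receptor can be set side by side. LY96 stood at 44.9 and 54.9 times the TLR4 level in the PC9-AMG libraries. In PC9-BrM4 the order was turned, with TLR4 at 2.84 and 4.35 times LY96, and in PC9 TLR4 stood at 0.775 of LY96 in both libraries.

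CD14, the lipopolysaccharide-binding co-receptor of monocytes (chr5:140631728-140633701, minus strand), was low in every line. It had 0.801 and 0.475 TPM in PC9-AMG, 0.677 and 0.754 TPM in PC9-BrM4, and 0.293 and 0.434 TPM in PC9. Both derived lines lay above the PC9 libraries, and they overlapped each other. At these levels, below the 1 TPM needed to enter the model in any library, no difference was fitted.

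TLR2 recognises bacterial lipoproteins as a pair with TLR1 or TLR6, and lies at chr4:153684289-153706090 on the plus strand. It had 3.58 and 3.72 TPM in PC9-AMG, 0.373 and 0.289 TPM in PC9-BrM4, and 1.62 and 1.90 TPM in PC9. The lines did not overlap, and their order was again the reverse of that for TLR4. PC9-AMG held 2.07 times the PC9 level and 11.0 times the PC9-BrM4 level, and PC9 held 5.33 times the PC9-BrM4 level. On the log2 scale the differences were 0.75, -1.05 and 1.81 (SE 0.112) for PC9-AMG against PC9, PC9-BrM4 against PC9 and PC9-AMG against PC9-BrM4. With a pseudocount of 0.1 they were 1.01, -2.11 and 3.13. With FPKM, which here too acts as another pseudocount, the second was -0.62 and the third 1.16.

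The TLR2 promoter is shown because, of the 8 genes with a promoter in the table used here, it and TICAM1 hold the letters GGACTTTCC, a kappa-B core sequence that NF-kB dimers are known to bind. Both strands were searched over the 250 bases before the RefSeq start, and 117 of 35116 promoters (0.333%) hold these letters. The core was looked for after the letters of these promoters had been seen, and a match is not a bound site. The sequence is from RefSeq, build GRCh38.p14, chr4:153684030-153684279, plus strand, and the capitals mark the match at positions -35 to -27 from the start.

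TLR2 promoter: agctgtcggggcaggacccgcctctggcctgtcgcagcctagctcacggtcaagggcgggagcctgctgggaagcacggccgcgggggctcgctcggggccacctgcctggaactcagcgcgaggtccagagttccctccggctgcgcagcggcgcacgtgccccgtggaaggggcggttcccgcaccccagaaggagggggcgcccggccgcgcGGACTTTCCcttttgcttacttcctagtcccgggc

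The 250 bases before the RefSeq start of TLR4 are not printed, since 228 of them lie inside the gene model of the deposited tables. They hold neither this core nor the AP-1 pattern TGANTCA, which was found in 6.57% of promoters. GAGGAA, the core letters of sites for the myeloid factor PU.1, occurs there 4 times on the 2 strands together, and at least once in 23.6% of promoters. A looser NF-kB pattern (GGG, any 5 bases, CC) was matched 7 times in the TLR2 promoter, 6 times in that of TLR5, 5 times in that of TICAM1 and 3 times in that of MYD88, on both strands together, and it occurs in 54.4% of all promoters. Some of these matches are the same place read on both strands or overlap each other, so the counts exceed the number of separate places. In TLR2 and TICAM1 some of the matches overlap the core. TLR1 and LY96 were not matched in the promoter table.

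TLR1 and TLR6, the alternative partners of TLR2, are neighbours on the minus strand of chromosome 4, at chr4:38796255-38804791 and chr4:38823708-38856817. TLR1 had 2.60 and 2.16 TPM in PC9-AMG, 1.82 and 2.46 TPM in PC9-BrM4, and 2.18 and 2.58 TPM in PC9. The libraries of all 3 lines overlapped. TLR6 had 6.77 and 6.27 TPM in PC9-AMG, 6.39 and 7.15 TPM in PC9-BrM4, and 7.06 and 7.17 TPM in PC9. PC9-AMG lay below both PC9 libraries by less than 1 TPM, and PC9-BrM4 overlapped both other lines. The log2 differences between lines ran from -0.11 to 0.11 for TLR1 (SE 0.139) and from -0.11 to -0.05 for TLR6 (SE 0.0901).

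The coding sequences of TLR1 and TLR6 share a run of 218 identical bases, from coding base 1379 of TLR1 and 1394 of TLR6. Of the 75-base windows, 149 of 2287 in TLR1 (6.52%) and 149 of 2317 in TLR6 (6.43%) occur in both genes, so reads from there could be counted for either. The other receptors, LY96, CD14 and the adaptors, apart from TLR4, shared no such window with another gene.

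TLR3 is the endosomal receptor for double-stranded RNA and signals through TICAM1 alone (chr4:186069155-186085098, plus strand). Its level was 4.21 and 4.27 TPM in PC9-AMG, 3.67 and 3.38 TPM in PC9-BrM4, and 5.84 and 5.48 TPM in PC9. Both derived lines were below PC9, and PC9-AMG was above PC9-BrM4, without overlap. The log2 difference was -0.35 for PC9-AMG against PC9, -0.56 for PC9-BrM4 against PC9 and 0.21 for PC9-AMG against PC9-BrM4 (SE 0.0917 each). Once the median of the genes in the fixed 10 Mb stretch that holds TLR3 was taken off, the first was -0.17 and the third 0.43.

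TLR5, the flagellin receptor (chr1:223109406-223143282, minus strand), had 0.451 and 0.513 TPM in PC9-AMG, 0.342 and 0.301 TPM in PC9-BrM4, and 0.574 and 0.622 TPM in PC9. Its order was PC9, then PC9-AMG, then PC9-BrM4, without overlap and within a range of less than 1 TPM. The other receptors of the family, TLR7 to TLR10, were lower still, at 0.161 TPM or less in any library.

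The make-up of the receptor set differed between the lines more than its sum. The summed level of TLR1 to TLR6 was 17.8 and 17.1 TPM in PC9-AMG, 25.0 and 27.0 TPM in PC9-BrM4, and 21.2 and 21.6 TPM in PC9. TLR4 made up 1.33% and 1.11% of that sum in PC9-AMG, 49.6% and 49.7% in the PC9-BrM4 libraries, and 18.4% and 17.9% in PC9. It was the most abundant of the 6 receptors in PC9-BrM4 and the least abundant in PC9-AMG, whereas TLR6 led in PC9-AMG and in PC9. These shares describe transcripts, and the depth behind them is known only as aligned bases, so no counting interval is given.

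**Figure D2:**
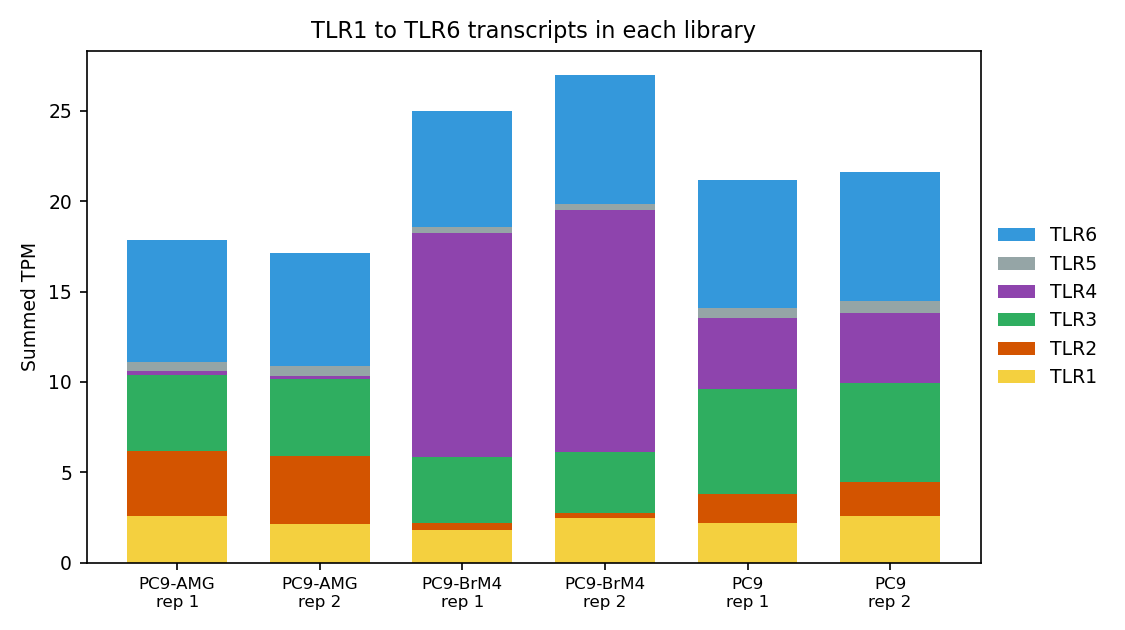
Stacked TPM of TLR1 to TLR6 in each of the 6 libraries, from PC9-AMG through PC9-BrM4 to PC9. TLR4 takes 1.33% and 1.11% of the PC9-AMG sums and 49.6% and 49.7% of the PC9-BrM4 sums, against 18.4% and 17.9% of the PC9 sums.

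MYD88, the adaptor of all these receptors but TLR3, was the most abundant of the 10 genes in every library (chr3:38138478-38143021, plus strand). It had 45.3 and 45.1 TPM in PC9-AMG, 29.6 and 33.5 TPM in PC9-BrM4, and 38.1 and 36.1 TPM in PC9. PC9-AMG was highest and PC9-BrM4 lowest, without overlap, the order seen for TLR2 and LY96. The differences were smaller than for those genes, at 1.22 times PC9 in PC9-AMG, 0.851 times PC9 in PC9-BrM4, and 1.43 times PC9-BrM4 in PC9-AMG. On the log2 scale they were 0.28, -0.23 and 0.51 (SE 0.0691 each). The second was -0.14 without the first PC9-BrM4 library.

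TICAM1, the adaptor of TLR3 and of internalised TLR4, lies at chr19:4815924-4831742 on the minus strand. It had 19.5 TPM in both PC9-AMG libraries, 8.58 and 9.41 TPM in PC9-BrM4, and 6.23 and 5.82 TPM in PC9. Both derived lines were above PC9, and PC9-AMG was above PC9-BrM4, without overlap. PC9-AMG held 3.24 times the PC9 level and 2.17 times the PC9-BrM4 level, and PC9-BrM4 held 1.49 times the PC9 level. On the log2 scale the differences were 1.55, 1.04 and 0.51 in that order (SE 0.0804 each). The last was 0.34 once the median of the genes in the stretch that holds TICAM1 was taken off. TICAM2, the adaptor that joins TLR4 to TICAM1, was named after its values were seen. It averaged 0.0179 TPM in PC9-AMG, 0.0898 TPM in PC9-BrM4 and 0.0299 TPM in PC9, and was not tested.

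The TICAM1 promoter is printed as the second with the kappa-B core, over the 220 bases before the RefSeq start that lie outside the gene model of the tables. It is from RefSeq, build GRCh38.p14, chr19:4831743-4831962, written 5′ to 3′ on the minus strand. The capitals mark the match at positions -119 to -111.

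TICAM1 promoter: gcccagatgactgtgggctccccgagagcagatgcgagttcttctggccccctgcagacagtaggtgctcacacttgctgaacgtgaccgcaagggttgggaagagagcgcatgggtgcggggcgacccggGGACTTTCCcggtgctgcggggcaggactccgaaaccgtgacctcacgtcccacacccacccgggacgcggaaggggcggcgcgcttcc

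Of the 4 genes that hold the looser pattern, TLR2, TICAM1 and MYD88 were highest in PC9-AMG and TLR5 was highest in PC9. In PC9-BrM4 TLR2 was lower and TICAM1 higher than in PC9, so the 2 genes with the core did not share an order. Whether either promoter was bound was not measured.

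Counted over the 10 genes, PC9-AMG lay above PC9 without overlap for 5 genes (TLR2, LY96, CD14, MYD88 and TICAM1) and below it for 4 (TLR3, TLR4, TLR5 and TLR6). Over all tested genes 79.8% did not overlap in that comparison, 39.6% higher and 40.2% lower. PC9-BrM4 lay above PC9 for 3 genes (TLR4, CD14 and TICAM1) and below it for 5 (TLR2, TLR3, TLR5, LY96 and MYD88), where 75.2% of all tested genes did not overlap, 37.4% higher and 37.8% lower. PC9-AMG lay above PC9-BrM4 for 6 genes and below it for TLR4 alone, where 77.5% of all tested genes did not overlap, 38.2% higher and 39.3% lower. The values themselves chose the genes, so nothing is read from these counts. The comparisons with PC9 share the 2 PC9 libraries.

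The surroundings of TLR4 on chromosome 9 were compared with the gene itself. Among 45 tested genes within 5 Mb, 17 were higher and 10 lower in PC9-AMG than in PC9 by limma at a Benjamini-Hochberg adjusted p of 0.05 over all 14195 tested genes, with a median log2 difference of 0.09. Over all tested genes 27.8% were higher and 27.7% lower in that comparison. In PC9-BrM4 against PC9, 6 of the 45 were higher and 14 lower, with a median of -0.07, beside 23.4% higher and 23.1% lower over all tested genes. TLR4's own -2.01 lay below the lowest neighbour in PC9-AMG (-1.34), while in PC9-BrM4 its 1.51 was passed by a neighbour, TNC, at 2.83. With the median of the genes in its 10 Mb stretch removed, TLR4 stood at -2.13 in PC9-AMG and 1.60 in PC9-BrM4.

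TICAM1 lay among genes that were mostly higher in PC9-AMG: of 192 tested within 5 Mb, 107 were higher and 11 lower than in PC9, with a median of 0.27. Over all tested genes 27.8% were higher and 27.7% lower in this comparison. Taking off the median of the 10 Mb stretch that holds TICAM1 left 1.28 of its 1.55 in PC9-AMG. In PC9-BrM4 against PC9, 78 of the 192 were higher and 17 lower by limma, with a median of 0.18. Over all tested genes 23.4% were higher and 23.1% lower in PC9-BrM4. LY96 lay among genes that were mostly lower in PC9-AMG than in PC9. By limma 0 of 17 were higher and 10 lower, with a median of -0.28, and LY96's own difference was 0.94. At an unadjusted p under 0.05 by limma, 0 of these 17 were higher and 10 lower.

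**Figure D3:**
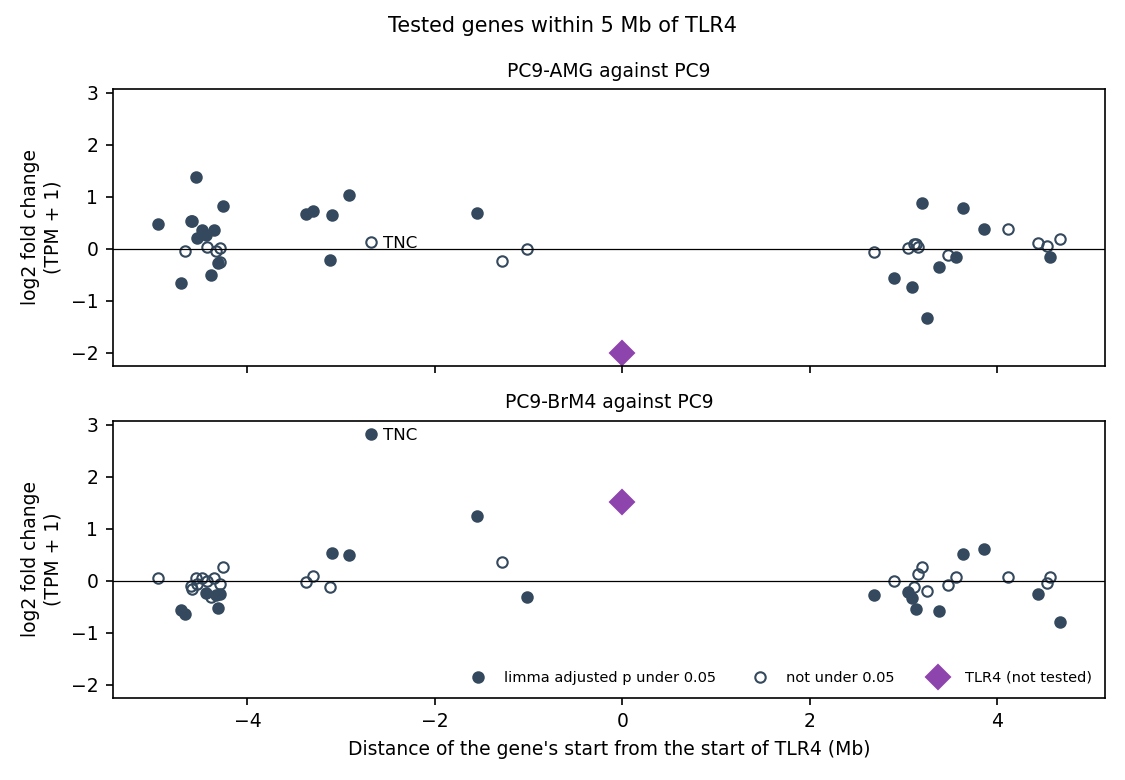
Log2 difference of each tested gene within 5 Mb of TLR4 by the distance of its start in Mb, for PC9-AMG against PC9 (top) and PC9-BrM4 against PC9 (bottom); filled circles passed an adjusted p of 0.05 by limma, and the diamond is TLR4, which was not tested. TLR4 sits at -2.01 in the top panel, below every neighbour, and at 1.51 in the bottom panel, below TNC at 2.83.

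For each of the 4 genes whose line means span at least 2-fold, other genes were ranked by likeness of profile over the 6 libraries. The measure was Euclidean distance between log2 values centred on their mean. The Toll-like receptor genes followed here and the genes of the pathway and marker lists were left out of the ranking. A gene left out can lie nearer than those ranked, as NFKB2 does to TICAM1. The ranked genes nearest TLR4 were SFRP1 (0.850), OXCT1 (1.10), PLLP (1.16), TNNI2 (1.33) and NTSR1 (1.34). For TLR2 they were EMP3 (0.138), ZNF385A (0.163), PADI3 (0.241), CYP2S1 (0.242) and AIM1L (0.267). Those nearest LY96 were SERPINB7 (0.249), TPPP3 (0.262), DDIT3 (0.264), LINC00960 (0.268) and TMEM265 (0.268). The ranked genes nearest TICAM1 were SEMA7A (0.129), STK40 (0.158), CTPS1 (0.195), LAMP3 (0.201) and ALOXE3 (0.228). SFRP1, an inhibitor of Wnt ligands, had 9.33 and 7.54 TPM in PC9-AMG, 88.9 and 97.2 TPM in PC9-BrM4, and 20.1 and 21.4 TPM in PC9. TLR4's nearest ranked profile was farther away than the nearest ranked profile of each of the other 3 genes. The distance was not scaled to a gene's own spread, which was widest for TLR4, so it cannot rank how unusual a profile is. Over 6 libraries of 3 lines many genes share an order, and the distances carry no test.

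Other genes of the pathway were taken from 9 lists of their roles, holding 128 genes, of which 101 were tested. By limma, with adjustment over all genes tested, 49 of the 101 were higher and 16 lower in PC9-AMG than in PC9, which is 64.4%, beside 55.5% of all tested genes (27.8% higher and 27.7% lower). In PC9-BrM4 34 were higher and 22 lower than in PC9, which is 55.4%, beside 46.6% of all tested genes (23.4% higher and 23.1% lower). Between the derived lines 49 were higher and 19 lower in PC9-AMG than in PC9-BrM4, which is 67.3%, beside 56.1% of all tested genes (28.1% higher and 28.0% lower). The median log2 differences of the 101 were 0.20, 0.05 and 0.20, where those of all tested genes were -0.0058, -0.0016 and -0.0059. The named genes are those called with the largest difference per list and comparison, and a few named beyond that rule are marked.

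**Figure D4:**
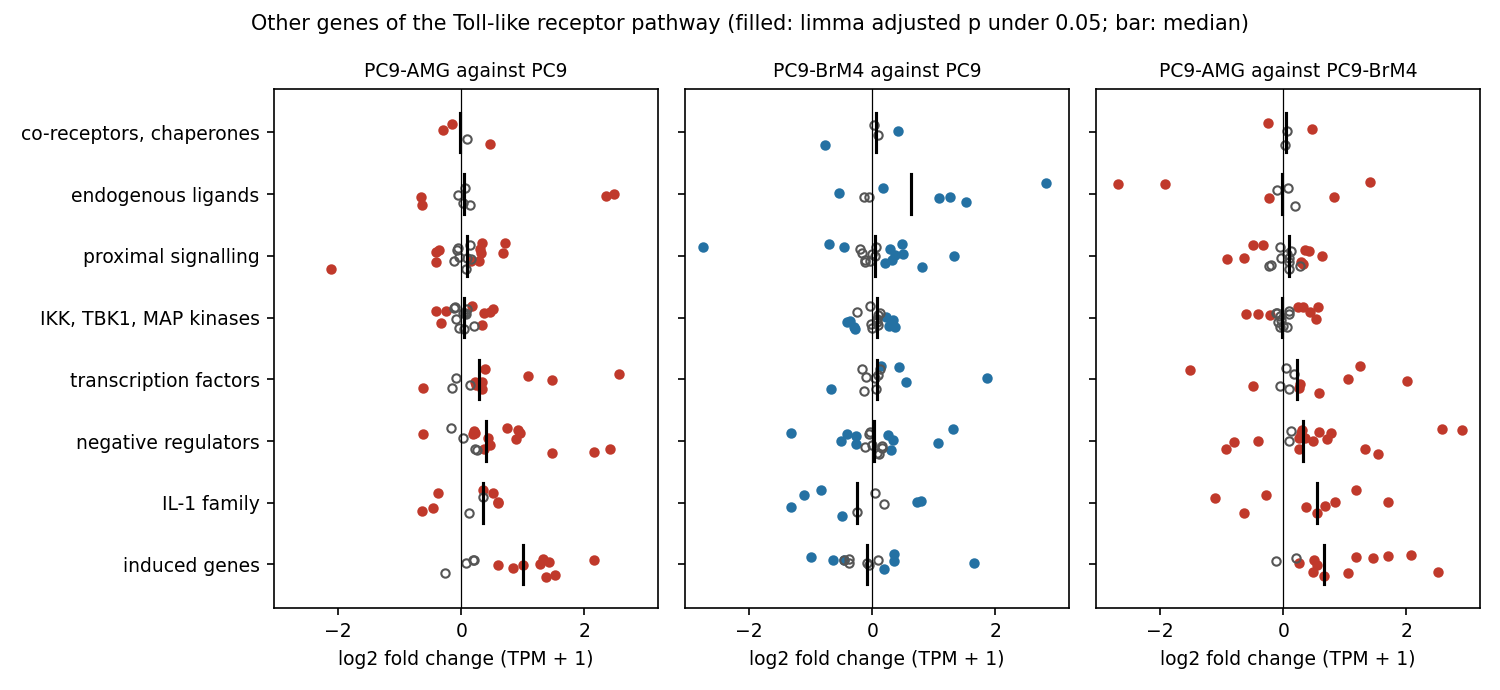
Log2 difference, on the log2(TPM + 1) scale, of each tested gene of 8 pathway lists (rows) in PC9-AMG against PC9, PC9-BrM4 against PC9 and PC9-AMG against PC9-BrM4 (panels); filled points passed an adjusted p of 0.05 by limma over all genes tested, open points did not, and the bar is the list's median. In PC9-AMG against PC9 the induced genes, called output genes in the text, have a median of 1.00, and the negative regulators 0.40; in PC9-BrM4 against PC9 TNC is the endogenous ligand at 2.83.

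Of 4 tested helpers of recognition, 1 was higher and 2 lower in PC9-AMG than in PC9, and 1 was higher and 1 lower in PC9-BrM4 than in PC9. Called were thus 75% and 50% of the 4, beside 55.5% and 46.6% of all tested genes. UNC93B1, the chaperone that carries the endosomal receptors out of the endoplasmic reticulum, had 73.8 TPM in PC9-AMG, 72.1 TPM in PC9-BrM4 and 53.3 TPM in PC9. It was higher than PC9 in both derived lines by limma (adjusted p 0.00145 in PC9-AMG and 0.0027 in PC9-BrM4). CNPY4, a relative of the receptor chaperone CNPY3, had 9.63 TPM in PC9-AMG, 6.71 TPM in PC9-BrM4 and 12.1 TPM in PC9. Its fall in PC9-BrM4 against PC9 passed by limma (adjusted p 0.000496), and the one in PC9-AMG (0.025) was lost without the first PC9-AMG library (0.134) or either PC9 library (0.0751 and 0.115).

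Proteins that the body itself makes and that are reported to engage TLR4 or TLR2 formed a list of 8 tested genes. In PC9-BrM4 5 of the 8 were higher and 1 lower than in PC9, with a median log2 difference of 0.63. TNC, the matrix glycoprotein tenascin-C, had 28.5 ± 4.08 TPM in PC9-BrM4 cells against 3.13 ± 0.282 TPM in PC9 (limma, log2 difference 2.83, adjusted p 8.39e-06), and 3.56 ± 0.617 TPM in PC9-AMG. It was thus high in the line with the highest TLR4, from which its start is 2.68 Mb away. In PC9-AMG 2 of the 8 were higher and 2 lower than in PC9. The calls were 50% of the 8 in PC9-AMG and 75% in PC9-BrM4, beside 55.5% and 46.6% of all tested genes. S100A9, a calprotectin subunit, had 18.6 TPM in PC9-AMG, 10.2 TPM in PC9-BrM4 and 2.92 TPM in PC9, and was higher than PC9 in both by limma (adjusted p 4.39e-05 and 0.000347). S100A8, the other calprotectin subunit, was listed at 0 in all 6 libraries and was not tested. It was named after its values were seen. HMGB1, a chromatin protein that acts as an alarm signal when released, had 140.3 TPM in PC9-AMG, 151 TPM in PC9-BrM4 and 219 TPM in PC9. It was lower than PC9 in both by limma (adjusted p 4.51e-05 and 0.000126). Its log2 differences were -0.64 and -0.53, beside medians of -0.43 and -0.36 for the other tested genes of its 10 Mb stretch. SAA1, an acute-phase protein, had 6.25 TPM in PC9-AMG and 1.74 TPM in PC9-BrM4, and was listed at 0.670 TPM and 0 in the PC9 libraries (limma, adjusted p 0.000127 for PC9-AMG against PC9). VCAN, the proteoglycan versican, had 0.126 TPM in PC9-AMG and 3.25 TPM in PC9-BrM4 (limma, adjusted p 9.86e-06).

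Among 19 tested proximal signalling genes, which relay the signal from the adaptors, 7 were higher and 4 lower in PC9-AMG, and 8 higher and 3 lower in PC9-BrM4, each against PC9. That is 57.9% of the 19 in either line, beside 55.5% of all tested genes in PC9-AMG and 46.6% in PC9-BrM4. PELI2, a Pellino ubiquitin ligase that acts on IRAK kinases, had 0.596 TPM in PC9-AMG, 0.0281 TPM in PC9-BrM4 and 5.98 ± 1.09 TPM in PC9, and was lower in both by limma (adjusted p 2.55e-05 and 9.65e-06). Its relative PELI3 had 12.1 TPM in PC9-AMG against 7.0 TPM in PC9 (limma, adjusted p 0.000674). PELI3 was also higher than PC9 in PC9-BrM4, at 8.79 TPM (limma, adjusted p 0.0415). PIK3AP1, an adaptor that links these receptors to PI3-kinase, had 2.46 TPM in PC9-BrM4 cells against 0.371 TPM in PC9 (limma, adjusted p 0.000121). It was also higher than PC9 in PC9-AMG, at 1.21 TPM (limma, adjusted p 0.00187). TRAF3, a ubiquitin ligase of the TICAM1 branch, had 15.4 TPM in PC9-AMG against 29.9 TPM in PC9-BrM4 (limma, adjusted p 3.8e-05). The IRAK kinases bind MYD88, and 2 of them were named after their values were seen. IRAK1 had 527 TPM in PC9-AMG, 746 TPM in PC9-BrM4 and 425 TPM in PC9, and IRAK4 had 10.3 TPM in PC9-AMG, 8.20 TPM in PC9-BrM4 and 13.9 TPM in PC9. By limma, IRAK1 was higher (adjusted p 0.0018 and 3.15e-05) and IRAK4 lower (0.00244 and 0.000258) than PC9 in PC9-AMG and PC9-BrM4.

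Of 18 tested genes of downstream kinases and of proteins that work with them, 5 were higher and 3 lower in PC9-AMG than in PC9. In PC9-BrM4 5 were higher and 4 lower than in PC9. These calls were 44.4% and 50% of the 18, beside 55.5% and 46.6% of all tested genes. IKBKG, TANK and TNIP2 on this list are not kinases. MAPK8, which encodes the kinase JNK1, had 42.3 TPM in PC9-AMG against 29.4 TPM in PC9 (limma, adjusted p 0.000575). TNIP2, which binds the NF-kB regulator A20, had 71.8 TPM in PC9-AMG against 51.6 TPM in PC9 (adjusted p 0.000186), and the p38 kinase gene MAPK11 had 8.58 TPM against 11.7 TPM in PC9 (0.00506, both by limma). Against PC9, PC9-BrM4 also had higher TNIP2, at 60.7 TPM, and lower MAPK11, at 9.33 TPM (limma, adjusted p 0.00638 and 0.0233). The calls for MAP3K8 and MAP2K6 in PC9-BrM4 against PC9 (limma, adjusted p 0.0104 and 0.0262) were each lost without a single library, at 0.0606 and up to 0.131. TBK1, the kinase that activates IRF3, had 41.7 TPM in PC9-AMG against 27.9 TPM in PC9-BrM4 (limma, adjusted p 0.00128), a call lost after the regional median was removed (0.0724).

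Of 12 tested transcription factors, 8 were higher and 1 lower in PC9-AMG than in PC9, with a median log2 difference of 0.29. RELB, an NF-kB subunit of the non-canonical branch, had 24.4 ± 1.10 TPM in PC9-AMG, 5.27 ± 0.208 TPM in PC9-BrM4 and 3.30 ± 0.757 TPM in PC9 (limma, log2 difference from PC9 in PC9-AMG 2.57, adjusted p 8.75e-06). Its partner NFKB2 had 45.8 TPM in PC9-AMG against 15.8 TPM in PC9 (limma, 1.48 on the log2 scale, adjusted p 4.38e-06). NFKB2 was also higher than PC9 in PC9-BrM4, at 21.6 TPM (limma, adjusted p 0.000914). FOS, an AP-1 subunit, had 4.53 TPM in PC9-AMG against 7.49 TPM in PC9 (limma, adjusted p 0.00088), and this difference turned to 0.28 from -0.62 on the log2 scale after the median of its region was removed. In PC9-BrM4 4 of the 12 were higher and 1 lower than in PC9. The calls were 75% of the 12 in PC9-AMG and 41.7% in PC9-BrM4, beside 55.5% and 46.6% of all tested genes. IRF7, the interferon regulatory factor of the MYD88 branch, had 17.1 ± 0.857 TPM in PC9-BrM4 cells against 3.99 ± 0.0845 TPM in PC9 (limma, 1.86 on the log2 scale, adjusted p 1.31e-05). IRF7 was also higher than PC9 in PC9-AMG, at 5.35 TPM (limma, adjusted p 0.0197). Its relative IRF5 had 1.53 TPM in PC9-BrM4 cells against 3.02 TPM in PC9 (limma, adjusted p 0.00226).

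Negative regulators were mostly higher in PC9-AMG: 13 of 18 tested were higher and 1 lower than in PC9, with a median log2 difference of 0.40, and 5 were higher and 5 lower in PC9-BrM4 than in PC9. Called were thus 77.8% and 55.6% of the 18, beside 55.5% and 46.6% of all tested genes. DUSP1, the phosphatase that switches off p38 and JNK, had 53.1 ± 9.62 TPM in PC9-AMG, 6.14 TPM in PC9-BrM4 and 9.10 TPM in PC9 (limma, adjusted p 8.54e-06 for PC9-AMG against PC9). ATF3, a stress-induced repressor of TLR4 target genes in mouse macrophages, had 34.7 ± 4.58 TPM in PC9-AMG against 6.92 TPM in PC9 (limma, adjusted p 7.87e-06). SIGIRR, a decoy of the interleukin-1 and Toll-like receptor family, had 20.5 TPM in PC9-AMG, 40.0 TPM in PC9-BrM4 and 32.1 TPM in PC9, and was lower in PC9-AMG than in either (limma, adjusted p 0.00021 against PC9). TNFAIP3, which encodes the ubiquitin-editing enzyme A20, had 35.2 ± 4.48 TPM in PC9-BrM4 cells against 13.5 ± 0.0813 TPM in PC9 (limma, adjusted p 0.000266). It was also higher than PC9 in PC9-AMG, at 26.3 TPM (limma, adjusted p 0.00112). IL1RL1, the receptor of interleukin-33, had 0.396 TPM in PC9-BrM4 cells against 2.48 TPM in PC9 (limma, adjusted p 0.000331).

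The interleukin-1 family, whose receptors share MYD88 with the Toll-like receptors, had 9 tested genes. In PC9-AMG 4 were higher and 3 lower than in PC9, and in PC9-BrM4 2 were higher and 4 lower than in PC9. Called were thus 77.8% and 66.7% of the 9, beside 55.5% and 46.6% of all tested genes. IL18 had 87.1 TPM in PC9-AMG, 26.1 TPM in PC9-BrM4 and 57.4 TPM in PC9 (limma, adjusted p 2.44e-05 for PC9-BrM4 against PC9). IL1B had 0.947 TPM in PC9-AMG, 0.213 TPM in PC9-BrM4 and 2.02 TPM in PC9 (limma, adjusted p 0.00201 and 9.81e-05 against PC9). The signalling receptor IL1R1 had 5.58 TPM in PC9-AMG against 13.2 TPM in PC9-BrM4, and the receptor antagonist IL1RN had 21.1 TPM against 8.73 TPM (limma, adjusted p 4.74e-05 and 3.15e-05). The decoy receptor IL1R2 had 31.5 TPM in PC9-BrM4 cells against 17.8 TPM in PC9 (limma, adjusted p 0.00027). It was also higher than PC9 in PC9-AMG, at 25.8 TPM (limma, adjusted p 0.0015). IL1RL2, the receptor of interleukin-36, had 5.25 TPM in PC9-AMG against 3.16 TPM in PC9 (limma, adjusted p 0.0134), a call lost without either PC9-AMG library (0.0774 and 0.0575) or the second PC9 library (0.0709).

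Genes that NF-kB or AP-1 are known to switch on after Toll-like receptor signalling were listed as outputs, and 13 of 24 were tested. In PC9-AMG 9 of the 13 were higher and 0 lower than in PC9 by limma, with a median log2 difference of 1.00, and at an unadjusted p under 0.05 by limma 1 was lower. In PC9-BrM4 4 were higher and 3 lower than in PC9. The calls were 69.2% of the 13 in PC9-AMG and 53.8% in PC9-BrM4, beside 55.5% and 46.6% of all tested genes. The 11 that were not tested (CXCL1, CXCL3, CXCL5, CXCL10, CCL2, CCL5, CCL20, TNF, IFNB1, CSF2 and CSF3) were below 1 TPM in every library, the highest being CXCL1 at 0.812 TPM. TNF, an early cytokine of Toll-like receptor signalling, averaged 0.294 TPM in PC9-AMG and 0.0810 TPM in PC9, and was listed at 0 in both PC9-BrM4 libraries. ICAM1, an adhesion molecule for leukocytes, had 73.0 ± 2.91 TPM in PC9-AMG, 51.2 ± 1.88 TPM in PC9-BrM4 and 15.6 ± 0.508 TPM in PC9, and was higher than PC9 in both by limma (adjusted p 1.62e-06 and 2.54e-06). IL23A, a subunit of interleukin-23, had 18.7 TPM in PC9-AMG against 3.68 TPM in PC9-BrM4 (limma, adjusted p 2.09e-06). The cytokine IL6 and the chemokine CXCL8 were named after their values were seen. IL6 had 11.6 and 7.41 TPM in PC9-AMG, 2.17 and 2.15 TPM in PC9-BrM4, and 2.84 and 3.42 TPM in PC9 (limma, adjusted p 0.000716 for PC9-AMG against PC9). CXCL8 had 10.6 and 5.85 TPM in PC9-AMG, 2.45 and 2.05 TPM in PC9-BrM4, and 2.05 and 2.89 TPM in PC9 (limma, adjusted p 0.00213). Both were above every library of the other lines in both PC9-AMG libraries, and these differ from each other by more than the libraries of the other lines do.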

How the data were processed

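Messenger RNA of PC9-AMG, PC9-BrM4 and PC9 cells was measured with 2 libraries per line. The authors deposited, per the file headers, TPM, FPKM (fragments relative to gene length and depth) and mean read coverage per gene for each library, with hg38 positions. HISAT2 2.1.0, StringTie 1.3.4d and bcl2fastq appear in the submitters' processing notes, beside hg38 as the genome build. No source used here gives the annotation release. Tables of PC9-AMG, as deposited, carry EMG in their names and were assigned by the sample records, and 6 columns of a table of the whole series were not used, since their names could not be matched to PC9-AMG.

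Lines of a symbol were summed. TPM, scaled to a fixed total by the authors, gives levels relative to the rest of a library. Values were taken to log2(TPM + 1), and the 14195 symbols with at least 1 TPM in at least 2 of 6 libraries were tested. limma 3.58.1 (R 4.3.3) was fitted with a mean-variance trend and 1 mean per line over all 6 libraries, with 3 residual degrees of freedom and a Benjamini-Hochberg adjusted p of 0.05 over all tested genes. The model was tested on simulated data. Aligned bases were estimated from deposited coverage over FPKM, and read counts were not recovered, so no counting interval is given. Tables were handled in Python 3.11.15 with pandas 2.3.3, numpy 2.4.6 and matplotlib 3.10.9. Promoters were searched in RefSeq sequences (GRCh38.p14), and shared windows in GENCODE v29 transcripts.

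The genes and lists were chosen with earlier results of these data known. Named pathway genes are, per list and comparison, the 2 called genes with the largest difference and the 1 with the largest difference in the other direction, among those with at least 1 TPM in the higher line and no overlap. A gene that this rule names is not reported here. Alternatives were 2 other pseudocounts, 2 other filters, FPKM, median-of-ratios scaling, the highest line of a symbol in place of the sum, only the 4 libraries compared, a replicate block, removal of the regional median over 10 Mb, and leaving out each library. The 10 Mb stretches were fixed along each chromosome and not centred on a gene.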

Additional observations from a re-analysis of the deposited data

Results flagged for a closer look

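For 4 of the 10 genes, both libraries of PC9-AMG lay on the opposite side of both PC9 libraries from both libraries of PC9-BrM4, and these differences were not tested because the genes were chosen with their values known. The log2 difference of PC9-AMG minus PC9-BrM4 was -3.52 for TLR4, which was lower than PC9 in PC9-AMG and higher in PC9-BrM4. It was 1.81 for TLR2, 1.302 for LY96 and 0.51 for MYD88, which were higher than PC9 in PC9-AMG and lower in PC9-BrM4. Both sides share the PC9 libraries. The LY96 libraries of PC9-BrM4, at 4.35 and 3.08 TPM, differ by more than the distance of the first from PC9 (5.01 and 5.0 TPM).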

How the results depend on the processing

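Under 16 alternative settings the number of pathway genes called, of 65, 56 and 68, ranged over 53 to 69 for PC9-AMG against PC9, 42 to 58 for PC9-BrM4 against PC9 and 58 to 72 for PC9-AMG against PC9-BrM4. The number of the 10 genes without overlap ranged over 9 to 10, 8 to 10 and 7 to 9 under 9 settings (FPKM, scaling, the highest line of a symbol and each library left out). Leaving out a library can only keep or raise this number, and the highest line cannot change it, since each gene has 1 line. Only FPKM and scaling could have lowered it, so the range is no check by the other settings. With a replicate block the counts were 62, 55 and 66. Deviations of same-numbered libraries correlated at -0.06, -0.03 and -0.07, and the block was not preferred. The labels do not say whether same-numbered libraries were prepared together. Of the log2 differences of the 8 genes among the 10 that passed the filter, given with no test, 50 moved and 328 stayed within the spread between libraries. Sign changes were seen for TLR1 and TLR6 alone, whose differences were small. Of the named pathway genes, FOS in PC9-AMG against PC9 reversed to 0.28 (limma, adjusted p 0.0313) after the regional median was removed, and the cause was not tested. For PC9-AMG against PC9-BrM4, the calls by limma were lost for CNPY4 (0.0943) and MAP3K8 (0.245) after that removal, for SAA1 (0.0925) at a pseudocount of 0.1 and for PELI3 (0.0558) without the second PC9-AMG library. For CNPY4 in PC9-AMG against PC9 the call was also lost with no filter (0.053). With 2 libraries a line and values below 1 TPM for TLR4 in PC9-AMG, TLR2 in PC9-BrM4, TLR5 and CD14, the size of a fold is the least certain where a level is lowest.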

Other observations

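Of the 12 myeloid markers 5 passed the filter, and in PC9-AMG against PC9 2 were higher, 2 lower and 1 did not pass. The higher ones were CSF1R (limma, 1.63 on the log2 scale, adjusted p 4.5e-05) and ITGAM (1.78, adjusted p 4.76e-05). The lower ones were CD68, at 40.0 TPM in PC9-AMG against 49.1 TPM in PC9 (limma, -0.29 on the log2 scale, adjusted p 0.00168), and LAPTM5, a lysosomal membrane protein of blood cells, at 11.4 TPM against 14.8 TPM (-0.34, adjusted p 0.00583). In PC9-BrM4 against PC9, CD68 and LAPTM5 were also lower and the other 3 did not pass. PTPRC, which encodes the leukocyte antigen CD45, stayed low, at 0.146 TPM in PC9-AMG, 0.0229 TPM in PC9-BrM4 and 0.122 TPM in PC9. These genes were named after their values were seen.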
